A study of Mus musculus with 6 samples.

Results

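The cytochrome P450 genes were followed in the vomeronasal organ (VNO), the pheromone-sensing organ of the mouse nasal septum, in wild-type mice and in mice null for AP-2e, the transcription factor encoded by Tfap2e. Genes were taken by name: every gene whose symbol starts with Cyp and a digit and that had a probe set assigned to it alone, which gave 98 of the 22180 genes on the arrays. They were read by 102 probe sets, and for the 4 genes with more than 1 probe set the one with the highest mean was used. Of the members, 4 carry pseudogene names (Cyp2d37-ps, Cyp4b1-ps2, Cyp4f41-ps and Cyp2c53-ps). Of 99 protein-coding Cyp genes in the RefSeq gene table, 6 are not among the members and are not analysed here (Cyp19a1, Cyp2c67, Cyp3a41a, Cyp3a41b, Cyp4a10 and Cyp4a32). Isolated VNOs of postnatal day 17 mice were compared on 6 Affymetrix arrays, with 3 wild-type and 3 AP-2e null samples and 1 array each. The labels call the samples biological replicates, while the sources used here do not give the null allele, the strain, the sex or how many animals made up a sample. P-values measure the spread between these samples.

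P450 enzymes are haem proteins of the endoplasmic reticulum or mitochondria that insert an oxygen atom into fatty acids, steroids, retinoids, drugs and inhaled chemicals, with electrons delivered by a reductase. The nasal mucosa is known for high P450 content, which sits mostly in the supporting (sustentacular) cells and the Bowman's glands around the sensory neurons, where the enzymes break down odorants and foreign compounds before conjugating enzymes make the products soluble. Members of the Cyp1, Cyp2 and Cyp3 families act mainly on foreign compounds, the Cyp4 family on fatty acids, and the remaining families each on a few endogenous substrates.

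Promoter windows from RefSeq (assembly GRCm38.p6) were found for 72 of the 98 members. Cyp2g1 and Cyp4a12b were among those without a window, so the motif shares below do not cover them. The windows of Cyp2a4 and Cyp2a5 are shown because these genes of 1 cluster had like profiles over the arrays. They code for closely related steroid and coumarin hydroxylases. Those of Cyp1a2 and Cyp4b1 are shown for the highest correlation with Cyp2g1 among members with means above the lower quartile of all probe sets. Each is the 250 bases upstream of the annotated start, written 5′ to 3′ on the gene's strand. For Cyp2a4 (chr7:26306942-26307191, plus strand) and Cyp2a5 (chr7:26835089-26835338, plus strand), capitals mark the bases that differ between them. For Cyp1a2 (chr9:57683656-57683905, minus strand) and Cyp4b1 (chr4:115647722-115647971, minus strand), capitals mark any TATAAA, short motif TTGGC of nuclear factor I (NFI) or AP-2 motif GCCNNNGGC on either strand; the Cyp4b1 window holds none of them.
Cyp2a4: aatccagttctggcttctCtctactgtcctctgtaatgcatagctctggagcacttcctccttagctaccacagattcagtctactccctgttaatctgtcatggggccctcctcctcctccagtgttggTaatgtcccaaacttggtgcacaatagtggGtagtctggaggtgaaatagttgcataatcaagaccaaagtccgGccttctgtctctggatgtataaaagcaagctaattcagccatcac
Cyp2a5: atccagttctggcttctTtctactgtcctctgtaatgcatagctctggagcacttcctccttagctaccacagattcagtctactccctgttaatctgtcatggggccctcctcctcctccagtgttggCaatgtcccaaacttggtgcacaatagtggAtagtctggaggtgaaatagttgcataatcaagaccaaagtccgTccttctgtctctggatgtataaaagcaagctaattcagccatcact
Cyp1a2: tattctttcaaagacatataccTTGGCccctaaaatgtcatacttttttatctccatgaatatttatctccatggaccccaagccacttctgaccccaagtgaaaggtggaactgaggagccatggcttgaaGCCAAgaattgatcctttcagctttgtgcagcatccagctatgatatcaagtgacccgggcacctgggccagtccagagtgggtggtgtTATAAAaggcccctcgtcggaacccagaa
Cyp4b1: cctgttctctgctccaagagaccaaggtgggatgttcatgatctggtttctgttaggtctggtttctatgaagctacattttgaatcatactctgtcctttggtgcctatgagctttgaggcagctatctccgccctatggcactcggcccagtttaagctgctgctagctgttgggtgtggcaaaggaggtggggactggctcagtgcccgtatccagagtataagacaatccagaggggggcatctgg
The upstream windows of Cyp2a4 and Cyp2a5 differed at 4 of 249 aligned bases (98.4% identity, 0 gaps inside the alignment). Whether probes of such closely related genes also bind the other transcript was not tested, so their signals may not be separate measurements. TATAAA lay at bases -29 to -24 from the start in Cyp1a2 and Cyp2a5, and at -28 to -23 in Cyp2a4. Over the whole 300-base windows, which reach 50 bases past the start, TATAAA stood in 27 of 72 members (37.5%), against 13.6% of all 32851 promoter windows. The AP-2 motif GCCNNNGGC stood in 10 of 72 members (13.9%) and in 16.6% of all windows. TTGGC stood in 45 members (62.5%, against 46.7%) and GCGTG, the core motif of the aryl hydrocarbon receptor, in 17 (23.6%, against 32.4%). The full NFI palindrome stood in 0 members and in 0.0365% of all windows, and the motif of the olfactory factor Ebf in 1 member (1.39%, against 0.904%). Both strands were searched, each full NFI motif holds the short one, and a match is only a match of letters. Members were counted by 1 window per gene, while the windows of all genes can hold several starts of a gene, so the shares are not strictly alike. Closely related members, such as Cyp2a4 and Cyp2a5, are not separate counts.

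The arrays were alike in scale, with medians over all probe sets between 4.997 and 5.079 (log2 signal) and correlations across genes, which are not independent replicates, between 0.978 and 0.992. Tfap2e lay at 6.46, 6.76 and 6.92 in wild-type samples and lower, without overlap, at 5.97, 6.09 and 6.04 in null samples, a difference of -0.68 (SE 0.13) that did not pass over all genes (adjusted p = 0.431 in limma). Whether its probes cover the part of the gene altered in the null allele is not known here. The 4 markers of vomeronasal neurons lay above the median gene on every array: Trpc2 lay between 6.75 and 7.08, and Omp, Gnai2 and Gnao1 all lay at 9.46 or above. AP-2e null replicate 1 stood apart in sex-linked genes, with Xist at 10.64 against 3.55 to 3.58 on the other arrays and Uty at 2.56 against 6.94 to 7.62. Cartilage markers stood apart on AP-2e null replicate 2, with a list mean of 8.50 against 6.32 to 6.66.

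A few P450 genes were bright and most were dim. Signals here are log2 values of probe sets, so a rank orders probe set signals and not amounts of RNA. Of the 98 members, 17 (17.3%) lay above the median gene, 6.04, and 36 had a mean under 3.62, the lower quartile of all probe sets. For 27 of them all 6 arrays lay under that quartile, so their values may be background and carry no order. The arrays hold RNA of dissected organs, so the cells that made each P450 RNA were not measured, and fewer cells of a type and less RNA per cell cannot be told apart.

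**Figure D1:**
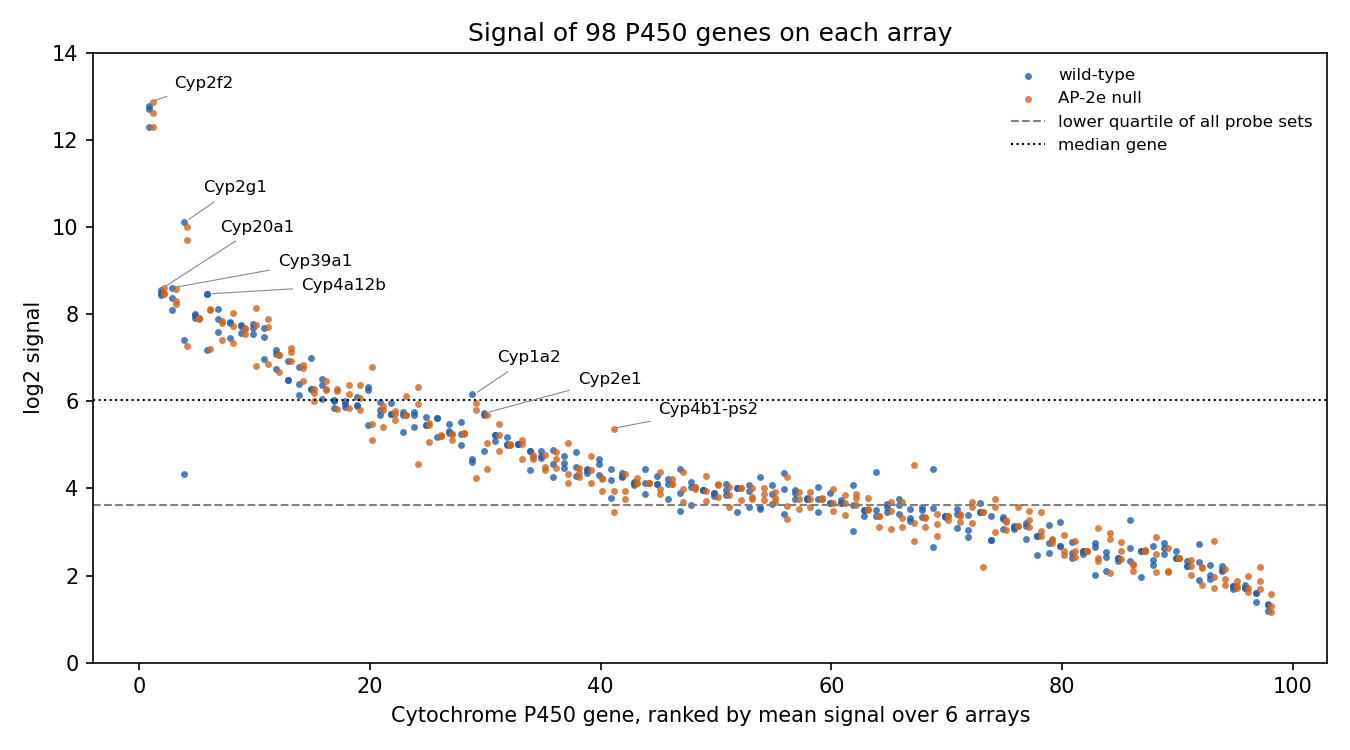
Log2 signal of the 98 P450 genes on each of 6 arrays (points, blue for wild-type and orange for AP-2e null), ordered on the x axis by mean signal. Cyp2f2 lies above 12 on every array, the points of Cyp2g1 reach from 4.33 to 10.13, and 81 genes have a mean below the median gene (dotted line).

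Cyp2f2, which oxidises naphthalene and is known from olfactory mucosa and airway club cells, had the highest signal of the members on every array. Its log2 signal was 12.71, 12.79 and 12.30 in wild-type samples, given here and throughout in the order of their replicate numbers, and 12.29, 12.88 and 12.61 in null samples. The genotypes overlapped fully, with means of 12.60 ± 0.26 and 12.59 ± 0.29 (SD over 3 samples) and a 95% interval of the difference from -0.49 to 0.48. A further probe set of Cyp2f2 was dimmer and varied more, with 5.61, 6.95 and 5.97 in wild-type and 5.35, 6.35 and 6.92 in null samples. Its difference between genotypes was 0.03, with no test run, and its order over the arrays was not that of the brighter probe set.

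Other bright members had differing roles. Cyp20a1, whose substrate is not settled, lay between 8.45 and 8.60 on all arrays. Cyp39a1, a hydroxylase of oxysterols in bile acid synthesis, lay at 8.61, 8.37 and 8.10 in wild-type and 8.30, 8.58 and 8.23 in null samples. Cyp2j6, an enzyme of polyunsaturated fatty acids, lay between 7.90 and 8.01 on all arrays. Cyp2s1, an epithelial P450, lay at 7.88, 8.13 and 7.60 in wild-type and 7.41, 7.80 and 7.83 in null samples. Cyp51, the demethylase of lanosterol in cholesterol synthesis, lay at 7.79, 7.46 and 7.81 in wild-type and 8.03, 7.72 and 7.34 in null samples, so both of its extremes were AP-2e null arrays. Cyp4v3, a fatty acid hydroxylase, lay between 7.55 and 7.76. In each of these genes the genotypes overlapped, and Cyp2j6 had the smallest range over the arrays among them.

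Cyp2g1, a steroid hydroxylase known as a product of olfactory supporting cells and Bowman's glands, had the largest spread of the members. Its log2 signal was 4.33, 10.13 and 7.41 in wild-type samples and 7.27, 9.70 and 10.01 in null samples. Wild-type replicate 1 was lowest, wild-type replicate 3 and AP-2e null replicate 1 were intermediate, and the other 3 arrays, from both genotypes, were high. Within the wild-type samples alone the range was 5.80 on the log2 scale, or 55.7-fold, and within the AP-2e null samples it was 2.74, or 6.70-fold. Mean signal was 7.29 ± 2.90 (SD) over 3 wild-type and 8.99 ± 1.50 (SD) over 3 null samples. Their difference of 1.71 (SE 1.59) did not pass (adjusted p = 0.873 in limma, exact 2-sided permutation p = 0.7, where 3 against 3 allows no p below 0.1), and its 95% interval ran from -2.24 to 5.65. Single samples moved it: the difference was 0.23 without wild-type replicate 1, 3.13 without wild-type replicate 2 and 2.57 without AP-2e null replicate 1, and it did not pass in these fits.

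The spread of Cyp2g1 within a genotype, pooled over both genotypes, was an SD of 2.31, the 23rd largest of the 22180 genes. The median of this SD was 0.21 over the members and 0.14 over all genes, and it was 0.25 over the 17 members above the median gene, against 0.11 for all genes above it. Of the members, 14 (14.3%) were among the 5% of genes with the largest SD. After Cyp2g1 came Cyp1a2 with 0.92, Cyp4b1-ps2 with 0.74, Cyp4f39 with 0.72, Cyp2a5 with 0.67 and Cyp2c65 with 0.66. A range of at least 1 log2 unit over the arrays was found for 19 members (19.4%) and for 7.40% of all genes. Several of these 19 were dim: 7 had means under the lower quartile of all probe sets, Cyp2c65 (3.35) among them.

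**Figure D2:**
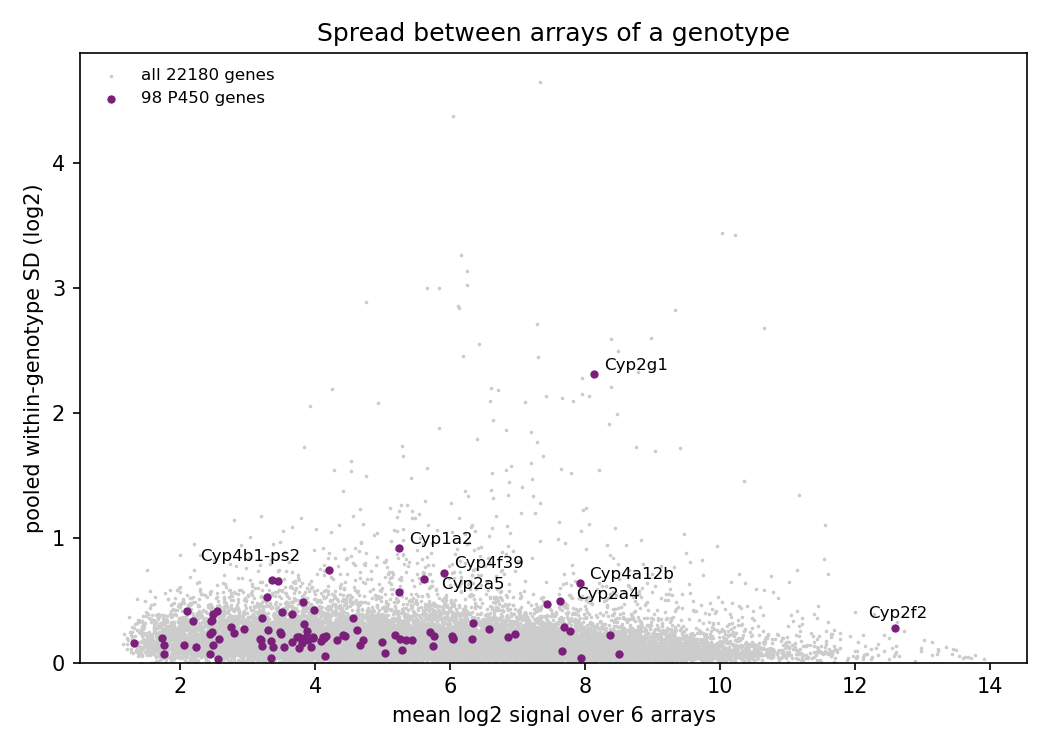
Pooled within-genotype SD (log2) on the y axis against mean log2 signal on the x axis, for all 22180 genes (grey) and the 98 P450 genes (purple). Cyp2g1 stands apart from the other P450 genes at an SD of 2.31, and Cyp1a2 is next at 0.92.

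Cyp1a2, which oxidises caffeine and aromatic amines, followed Cyp2g1 over the arrays in part. Its log2 signal was 4.62, 6.16 and 4.68 in wild-type and 4.23, 5.96 and 5.80 in null samples. The same 3 arrays were high as for Cyp2g1, and the genotypes overlapped (difference 0.18, SE 0.63, 95% interval -1.39 to 1.75). Cyp4b1, a fatty acid hydroxylase that also activates protoxins in the airways, lay at 6.98, 7.67 and 7.47 in wild-type and 6.85, 7.90 and 7.71 in null samples (difference 0.11, SE 0.33). Over the 6 arrays, and as a description only, the correlation with Cyp2g1 was r = 0.82 (Spearman's rho 0.89) for Cyp1a2, r = 0.82 (rho 0.71) for Cyp4b1 and r = 0.82 (rho 0.94) for the dimmer probe set of Cyp2f2. The brighter probe set, which stands for Cyp2f2 here, had r = 0.32 (rho 0.43) over the 6 arrays. Wild-type replicates 1 and 2 were the 2 arrays farthest from the median of Cyp2g1. Over the other 4, r was 0.97 for Cyp1a2 and 0.82 for Cyp4b1. It was 0.90 and 0.89 for the dimmer and brighter probe sets of Cyp2f2. These 4 arrays set Cyp2g1 at 7.41 and 7.27 (wild-type replicate 3, AP-2e null replicate 1) against 9.70 and 10.01. A high r over 4 was not particular to these genes: Cyp4v3 and Cyp4a12b had 0.998 and 0.997, but 0.21 and 0.13 over 6. Over the 6 arrays, 4 of the other 97 members (4.12%) had an r above 0.8, as did 3.28% of all genes, so the share among P450 genes was near the background. The remaining members past it were Cyp2c37 and Cyp2c29, whose means of 2.46 and 2.57 lay under the lower quartile of all probe sets. A further, dimmer probe set of Cyp2c29 ran the opposite way (r = -0.86, against 0.83 for the one used).

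The genes of the whole table most like Cyp2g1 were sought by Pearson's r among genes with a range of at least 1 log2 unit. The 10 highest, in order, were S100a5, Gnal, Drd2, Olfr124, Olfr373, Aox2, Gpx6, Olfr1200, Cnga2 and Bpifb3, with r from 0.98 to 0.93. Gnal and Cnga2 code for the G protein and a channel subunit of odorant transduction in the main olfactory epithelium, S100a5 is a calcium-binding protein of its neurons, and Aox2 and Gpx6 are enzymes of the nasal mucosa. S100a5 lay at 4.20, 8.62 and 6.55 in wild-type and 5.60, 7.72 and 8.27 in null samples. Gnal lay at 4.35, 7.55 and 5.88 in wild-type and 5.24, 7.14 and 7.12 in null samples. Aox2 lay at 4.95, 7.15 and 5.99 in wild-type and 5.35, 7.19 and 7.20 in null samples. Each of these was lowest on wild-type replicate 1 and high on the same 3 arrays as Cyp2g1, and 0 of the 10 passed between genotypes, with adjusted p from 0.873 to 0.972 in limma. All of these correlations share the same 6 RNA samples.

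**Figure D3:**
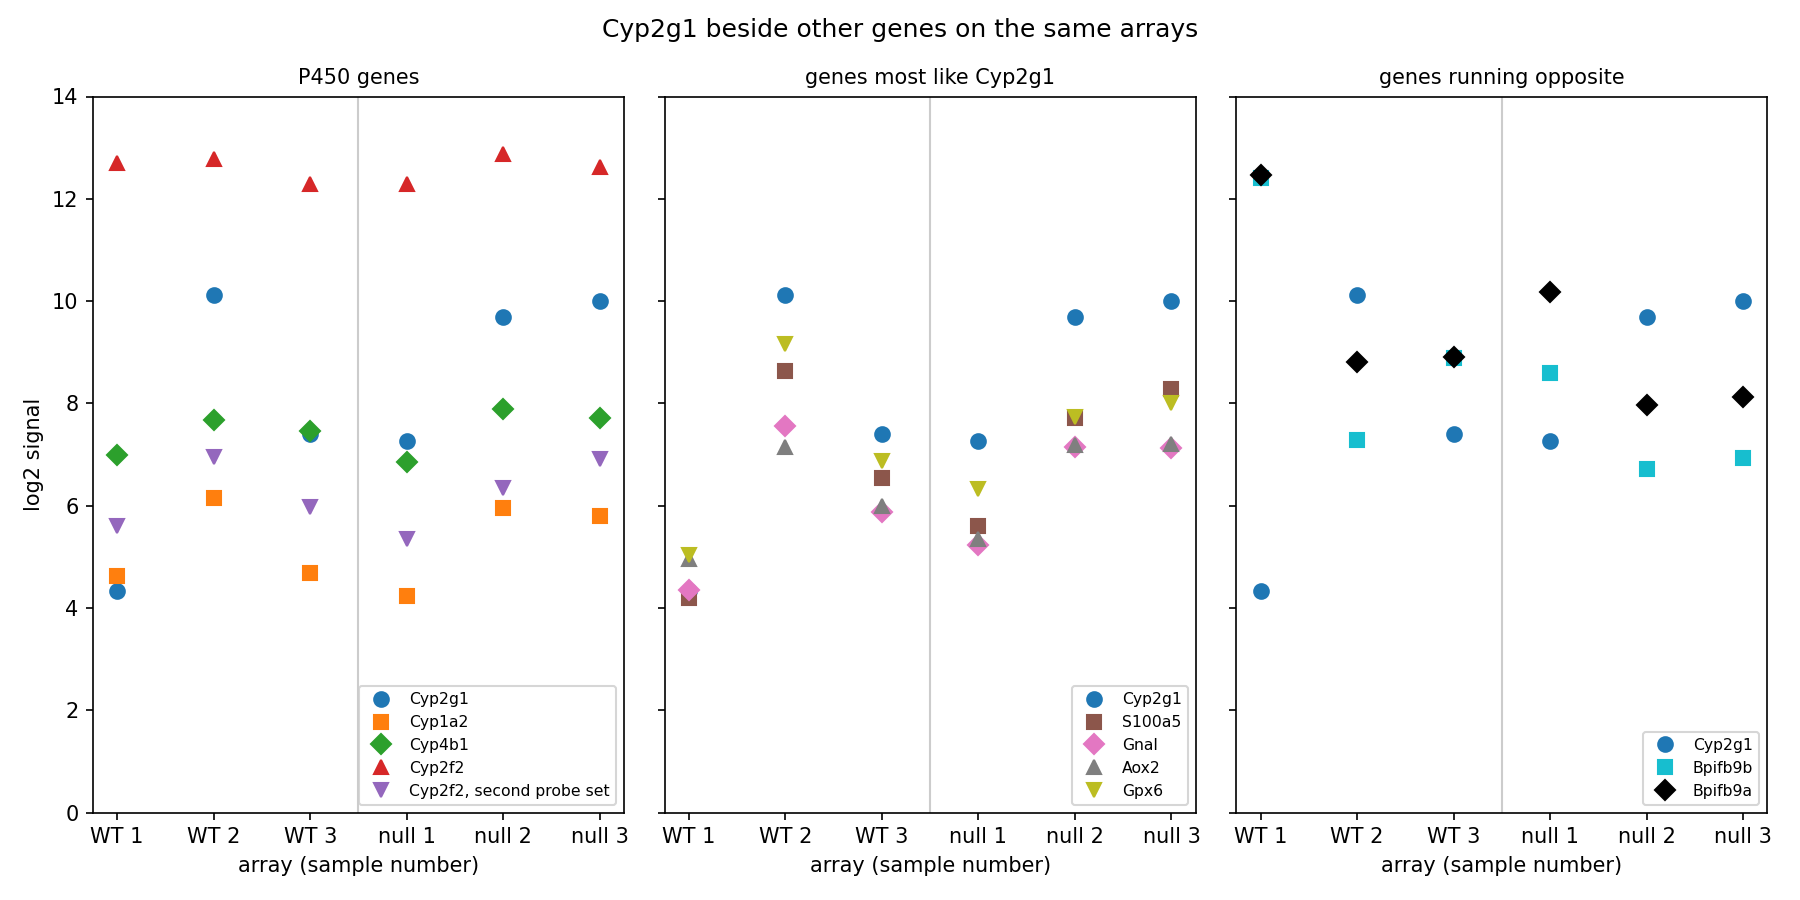
Log2 signal (y axis) on each array (x axis, 3 wild-type and 3 AP-2e null) of Cyp2g1 beside other P450 genes (left, with both probe sets of Cyp2f2), 4 genes with like profiles (middle) and Bpifb9a and Bpifb9b (right), with 1 marker shape per gene. Cyp2g1 is at 4.33 on wild-type replicate 1, where Bpifb9b is at 12.42, and at 10.13 on wild-type replicate 2, where Bpifb9b is at 7.28.

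Some markers of main olfactory neurons moved with Cyp2g1. Of 8 listed genes 6 were measured, and their mean signal was 6.51, 7.82 and 6.89 in wild-type and 6.79, 7.57 and 7.58 in null samples, in exactly the order of Cyp2g1 (rho = 1 and r = 0.96 over 6 arrays, r = 0.996 over 4). Of the 6, Cnga2, Gnal, Ric8b and Stoml3 had an r above 0.8, while Cngb1 and Rtp2 did not (r = -0.27 and -0.31). Gnal and Cnga2 were also among the genes picked above by their r with Cyp2g1, so they are not separate support. The dimmest of the 6, Cnga2, lay at 3.36 on wild-type replicate 1 and 5.75 on wild-type replicate 2. The mean of the multiciliated cell markers had as high an r over the same 4 arrays, 0.994, but -0.17 over 6. The mean of the nasal gland list, 12 of 14 measured, lay between 9.91 and 10.36 and had r = -0.91 with Cyp2g1 over 6 arrays and -0.96 over 4, a value that rests on Bpifb9b. That gene lay at 12.42, 7.28 and 8.90 in wild-type and 8.59, 6.72 and 6.93 in null samples. Without it, a setting chosen after the values were seen, the mean of the other 11 lay between 10.17 and 10.41, with r = 0.10 over 6 arrays and -0.75 over 4. Of the 12 genes, 5 had an r above 0 (Bpifa1 0.98, Sox9 0.76, Sox10 0.54, Dmbt1 0.35 and Bpifb1 0.17) and 7 below. The part of these cells in the spread of Cyp2g1 was not tested.

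The 8 measured markers of olfactory supporting cells, of 10 listed, had a smaller range than the neuron list, 0.65 against 1.31. Their mean lay between 9.25 and 9.67 in wild-type and between 9.03 and 9.53 in null samples (r = 0.45 and rho = 0.77 with Cyp2g1 over 6 arrays, r = 0.92 over 4). Ermn alone of the 8 had an r above 0.8, at 3.55, 5.38 and 4.43 in wild-type and 3.38, 5.03 and 4.82 in null samples. Cbr2, a carbonyl reductase, lay at 12.31 or above on every array and Sec14l3, a lipid-binding protein, at 9.09 or above. On wild-type replicate 1, where Cyp2g1 lay at 4.33, Cbr2 lay at 12.92 and Cyp2f2 at 12.71. In the same sample Ermn lay at 3.55 and the dimmer probe set of Cyp2f2 at 5.61. The part of supporting cells in the Cyp2g1 values was not tested.

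A further pattern, noticed after the values were seen, set wild-type replicate 3 and AP-2e null replicate 1 low within their genotypes. Both were the lowest of their genotype for 8 of the 17 members (47.1%) above the median gene (Cyp2f2, Cyp2j6, Cyp4a12b, Cyp2s1, Cyp4v3, Cyp2a4, Cyp2d22 and Cyp4f13), against 15.2% of all genes above the median. Over all 98 members it was 21 (21.4%), against 3114 of all 22180 genes. The 21 include Cyp7a1, Cyp2ab1 and Cyp27b1, in which AP-2e null replicate 1 only tied for the lowest null value. Ties among the 3114 genes were not counted apart. Cyp4a12b, a fatty acid hydroxylase whose close relative Cyp4a12a is known for male-biased expression in liver and kidney, lay at 8.46, 8.47 and 7.18 in wild-type and 7.19, 8.09 and 8.11 in null samples. Its lowest values, 7.18 and 7.19, came from wild-type replicate 3 and from AP-2e null replicate 1, the only array with high Xist signal. With 1 such array sex cannot be told apart from that sample, and its part in these values was not tested. Of the 13 measured multiciliated cell markers 11 had the same 2 arrays lowest, with list means of 7.61 and 7.58 on these and 7.81 to 8.31 on the others. Of the supporting cell markers 4 of 8 did, Sox2 only through a tie of AP-2e null replicates 1 and 2 at 10.50. Of the 4 measured horizontal basal cell markers 3 did, and the mean of that list was also lowest on these 2 arrays. The part of these cell types in the P450 values was not tested.

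Cyp2a4 and Cyp2a5 were lowest on AP-2e null replicate 1 and highest on AP-2e null replicate 2. Cyp2a4 lay at 7.69, 7.77 and 7.56 in wild-type and 6.82, 8.15 and 7.76 in null samples, and Cyp2a5 at 5.42, 5.69 and 5.76 in wild-type and 4.56, 6.33 and 5.95 in null samples. The wild-type values lay inside the range of the AP-2e null values in both genes, and the differences were -0.10 (SE 0.34) and -0.01 (SE 0.46). AP-2e null replicate 1 was the array with high Xist signal, and AP-2e null replicate 2 the array with high cartilage markers. The part of sex or of cartilage in these values was not tested. Without AP-2e null replicate 1 the difference of Cyp2a5 was 0.51 and still did not pass (adjusted p = 0.888 in limma).

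In the gene table, 13 members of the Cyp2 A, B, F, G, S and T subfamilies lie on chromosome 7 in the order Cyp2s1, Cyp2b10, Cyp2b13, Cyp2b9, Cyp2a4, Cyp2b23, Cyp2b19, Cyp2g1, Cyp2a5, Cyp2a22, Cyp2a12, Cyp2f2 and Cyp2t4. On either side of Cyp2g1, Cyp2b19 had a range of 0.94 over the arrays and Cyp2a5 of 1.76, against 5.80 for Cyp2g1. Cyp2b10, a gene induced by the receptor CAR in liver, was high on wild-type replicate 3 alone, at 6.28, 6.28 and 7.01 in wild-type samples, with the 3 null samples at or below 6.28. Of the 13, 4 had higher and 9 lower means in AP-2e null VNOs, 0 had an unadjusted p under 0.05, and 3 were under the lower quartile of all probe sets.

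Between genotypes, 0 of the 98 members passed at an adjusted p under 0.05 in limma, where 0.225% of all genes did. The smallest adjusted p of a member was 0.873. At an unadjusted p under 0.05 there were 3 members (2 higher and 1 lower in AP-2e null VNOs), while 4.4% of all genes were under it (1.9% higher and 2.49% lower). Of the members, 48 had higher and 50 lower means in AP-2e null VNOs, and the median difference was -0.002, beside -0.001 over all genes. The genotypes did not overlap for 4 members (1 higher and 3 lower), and for 7.06% of all genes. Shares near or below those of all genes are no result about the P450 genes.

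**Figure D4:**
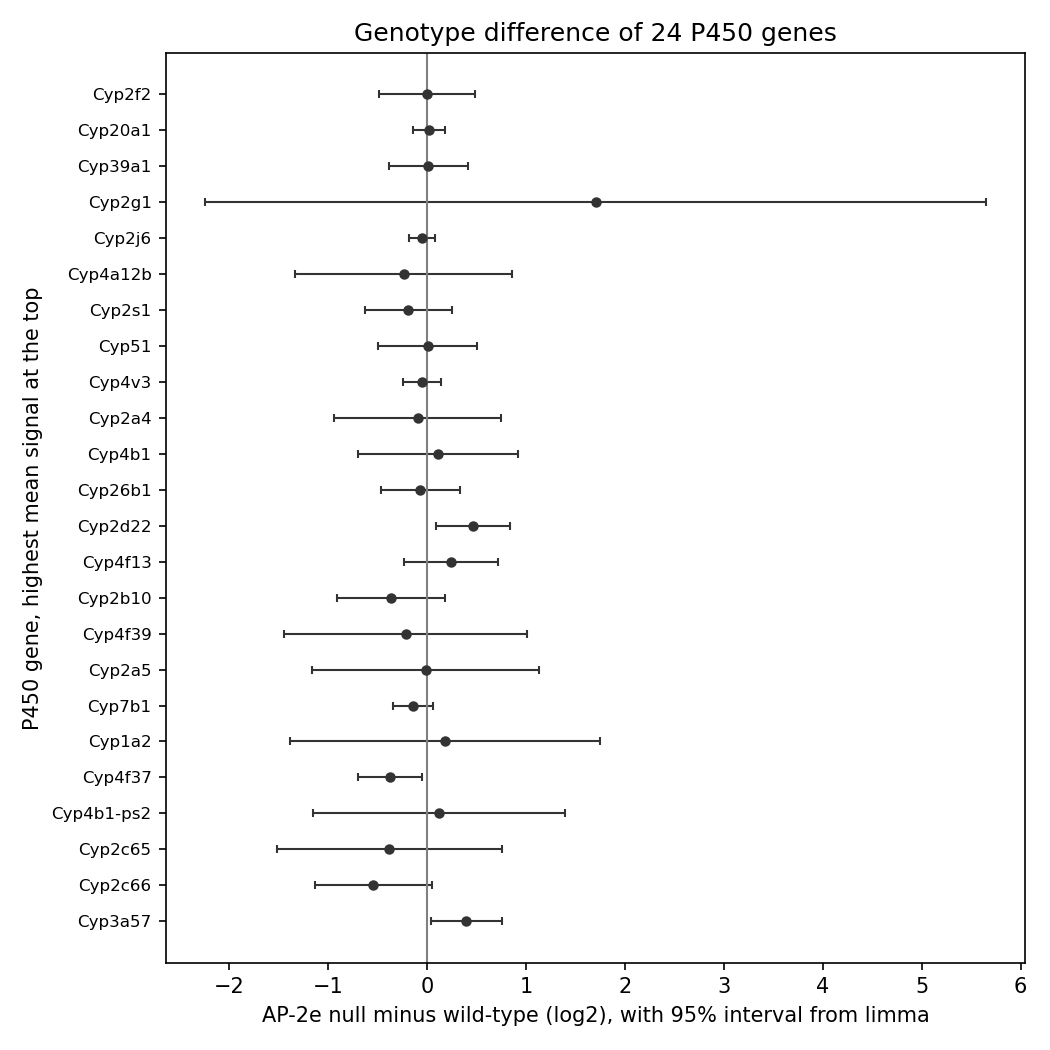
AP-2e null minus wild-type difference in log2 signal (points, x axis) with its 95% interval from limma (bars) for 24 P450 genes, ordered by mean signal. The interval of Cyp2g1 runs from -2.24 to 5.65, and the intervals of Cyp2d22, Cyp4f37 and Cyp3a57 leave out 0 before adjustment over all genes.

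The members with an unadjusted p under 0.05 were Cyp2d22, Cyp4f37 and Cyp3a57. Cyp2d22, a member of the debrisoquine hydroxylase subfamily, lay at 6.50, 6.92 and 6.48 in wild-type and 6.92, 7.22 and 7.14 in null samples, so its groups touched at 6.92. Its difference was 0.46 (SE 0.15, 95% interval 0.09 to 0.83, unadjusted p = 0.0236 and adjusted p = 0.873 in limma). Cyp4f37, of a subfamily that hydroxylates fatty acids and leukotrienes, lay at 4.55, 4.31 and 4.67 in wild-type and 4.22, 3.94 and 4.25 in null samples, with no overlap (difference -0.37, SE 0.13, adjusted p = 0.873 in limma). Cyp3a57 lay at 1.59, 1.59 and 1.39 in wild-type and 2.20, 1.87 and 1.70 in null samples, all under the lower quartile of probe sets (difference 0.40, SE 0.14). The other members without overlap were Cyp2c66, from 2.75 ± 0.47 to 2.20 ± 0.09, and Cyp7b1, an oxysterol hydroxylase, from 5.35 ± 0.11 to 5.21 ± 0.08 (wild-type to null, SD over 3 samples). Cyp2c66 was also under that quartile on every array.

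By role, 0 members passed in any group. The 7 members of cholesterol and bile acid metabolism had a median SD of 0.14 and differences from -0.21 to 0.02, with 0 of them ranging over 1 log2 unit. The 5 of steroid hormone synthesis, among them the side-chain cleavage enzyme Cyp11a1, had means from 3.18 to 5.03 and differences from -0.22 to 0.23. The 3 retinoic acid hydroxylases differed by -0.15 to -0.01, with Cyp26b1 at 6.74, 7.18 and 7.08 in wild-type and 6.67, 7.06 and 7.06 in null samples. The 3 of vitamin D metabolism differed by -0.09 to 0.12. In the Cyp1 family 2 of 3, in the Cyp4 family 5 of 20 and in the Cyp3 family 0 of 7 were among the 5% of genes with the largest SD, and 5 of the 7 Cyp3 genes had means under the lower quartile. Cyp4f39, a hydroxylase of very long fatty acids in skin, lay at 6.33, 6.26 and 5.45 in wild-type and 5.10, 6.80 and 5.49 in null samples. The pseudogene Cyp4b1-ps2 was high on AP-2e null replicate 1 alone, at 5.37 against 3.46 to 4.44. The 36 other Cyp2 genes had a median difference of 0.00, and Cyp2e1, the ethanol-oxidising P450, lay between 4.44 and 5.73 with AP-2e null replicate 2 lowest. Cyp4f13 lay between 6.15 and 6.84 and differed by 0.24 (SE 0.19).

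Genes that work with the P450 enzymes were read from 4 lists, and 0 of their genes passed over all genes. Of the electron donors and partners, 9 of 13 listed genes were measured, 5 higher and 4 lower, and 0 had an unadjusted p under 0.05. Cyb5r3, the cytochrome b5 reductase, was the brightest with 11.09 ± 0.38 in wild-type and 11.26 ± 0.17 in null VNOs (SD over 3 samples). Cyb5b and Pgrmc1, a haem-binding partner, had mean signals of 9.72 and 9.84 and differed by 0.02 and -0.04. The remaining genes named by the rule were Hmox1 at 0.15, Fdx1 at -0.22, Hmox2 at -0.16 and Pgrmc2 at 0.07 (log2 differences). Por, the main P450 reductase, is not analysed here.

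Of the conjugating enzymes 40 of 55 were measured, 16 higher and 24 lower. Of the 40, 2 had an unadjusted p under 0.05, against 4.4% of all genes. The genotypes did not overlap for 2, against 7.06% of all genes, so neither count is a result about the list. Gsto1, a glutathione transferase of the omega class, had the smallest p: it lay at 10.67, 10.50 and 10.62 in wild-type and 9.57, 10.21 and 9.85 in null samples, without overlap (difference -0.72, SE 0.17, unadjusted p = 0.00603 and adjusted p = 0.832 in limma). Gstt3 was the other gene with an unadjusted p under 0.05, with a difference of 0.19 (SE 0.07). Gsta4, which conjugates lipid aldehydes, was lowest on wild-type replicate 3, at 10.05 against 10.59 to 11.53 elsewhere. Gstk1 differed by 0.19, the oestrogen sulphotransferase gene Sult1e1 by 0.19 and Gstp1 by -0.20. Ugt2a1 and Ugt2a2, the olfactory glucuronosyltransferases, are not analysed here.

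Of the other oxidising and hydrolysing enzymes 47 of 53 were measured, 24 higher and 23 lower. Of the 47, 3 had an unadjusted p under 0.05, against 4.4% of all genes. The genotypes did not overlap for 4, against 7.06% of all genes, so neither count is a result about the list. Akr1c18, which inactivates progesterone, lay at 8.30, 7.47 and 7.82 in wild-type and 6.17, 7.34 and 6.96 in null samples, without overlap (difference -1.04, SE 0.36, adjusted p = 0.873 in limma). Aldh3b1, an aldehyde dehydrogenase, differed by -0.51 (SE 0.19) and the monoamine oxidase Maob by 0.24 (SE 0.08), both without overlap between genotypes. Aldh1a1, which makes retinoic acid, lay at 10.97, 10.81 and 10.47 in wild-type and 9.68, 10.49 and 10.38 in null samples. Aldh2 lay between 10.38 and 10.83, with a difference of 0.18, and Cbr2 was level at a difference of 0.00. In Akr1c18, Aldh3b1, Aldh1a1 and Gsto1 the lowest array was AP-2e null replicate 1, the array with high Xist signal. The list means of multiciliated, supporting and horizontal basal cell markers were also lowest there, at 7.58, 9.03 and 7.07, as was that of cartilage at 6.32. So were the list means of the electron donors and partners (8.51), the conjugating enzymes (5.54) and the other oxidising and hydrolysing enzymes (6.75). A low value on this array was thus not particular to the 4 genes. The part of sex or of these cell types in them was not tested.

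The regulators of P450 genes had the lowest median SD of the 4 lists, 0.11. Of 32 listed genes 30 were measured, 14 higher and 16 lower, with differences from -0.30 to 0.24 and 0 with an unadjusted p under 0.05. Their list mean lay between 6.68 and 6.72 on all 6 arrays. Nfib and Nfia, of the NFI family, lay at 10.39 and 8.54 on average and differed by 0.08 and 0.22. The antioxidant regulator Nfe2l2 differed by 0.02, the vitamin D receptor gene Vdr by 0.24, Rxra by 0.11, Nr5a1 by -0.17 and Srebf2, which controls cholesterol synthesis genes such as Cyp51, by -0.13.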

How the data were processed

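Values were the deposited log2 signals, 1 per probe set and array, for which the submitters' processing notes name RMA, a method of background correction, quantile normalization and probe summary, and the Transcriptome Analysis Console. The sources used here do not give their versions and settings or the genome build. Of 41345 probe sets, 23521 had 1 gene in the platform annotation, 1814 several and 16010 none. Symbols were checked against RefSeq (GRCm38.p6), where 23328 matched and 0 changed. The probe set with the highest mean was kept per gene, no filter on dim genes was set, and 22180 genes were fitted in R 4.3.3 by limma 3.58.1 with genotype as the only term, moderated by eBayes and adjusted after Benjamini-Hochberg over all genes (2-sided, threshold 0.05). A positive difference means higher signal in AP-2e null samples, and the number of arrays limits the precision. The fit was tested on simulated data. The Cyp genes, the lists and the rule for named genes were chosen with earlier results of these data known. The rule took the 15 brightest members, those with an unadjusted p under 0.05 or without overlap, the 6 with the largest SD, of each list the 4 smallest p and the 3 brightest, and the 10 genes most like Cyp2g1, leaving out predicted genes, clone names and small RNA genes. The groups by role were added after the values were seen. Plots used matplotlib 3.10.9 in Python 3.11.15.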

Additional observations from a re-analysis of the deposited data

How the results depend on the processing

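In all 13 alternatives were run: array weights, the replicate block, median centring, a repeated quantile normalization, trend and robust moderation, averaged probe sets, a filter that dropped the lowest 30% of genes and kept 36 of the 98 P450 genes, and 6 fits with 1 array missing. Under each, 0 P450 genes and 0 genes of the 4 lists passed, with the smallest adjusted p at 0.159 and 0.0990 in limma, both without wild-type replicate 3. The median difference of the P450 genes lay between -0.026 and 0.014 with all arrays, positive only with median centring and repeated quantile normalization, and between -0.031 and -0.008 with an array left out. The difference of Cyp2g1 was 0.23 when wild-type replicate 1 was missing, 3.13 when wild-type replicate 2 was, and 2.62 with array weights. With the replicate block it was 1.71 (adjusted p = 0.895 in limma), and the block changed no call. Deviations of same-numbered samples from the genotype means correlated with r = 0.04, 0.11 and 0.02, against -0.193 to 0.122 for the other pairs. These values cannot show whether same-numbered samples shared a litter, a day or a batch. Of the 24 P450 genes named by the rule, 13 changed sign in some alternative, all of them genes with a reported difference of 0.38 or smaller in size. The median SD of the P450 genes lay between 0.208 and 0.214 under other scaling and probe set rules. Signals under the lower quartile of probe sets limit 36 of the 98 genes.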
